A study of Arabidopsis thaliana with 9 samples.

Results

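The genes described here are 370 protein-coding loci of Arabidopsis thaliana that lie around the 5 centromeres. Each has a probe set of its own on the ATH1 array by the annotation used here. They were chosen by locus number, from AT1G35000 to AT1G44000, AT2G05000 to AT2G12000, AT3G30000 to AT3G43000, AT4G04000 to AT4G08000 and AT5G27500 to AT5G34000, with 1 probe set per locus, the one with the highest mean signal. They made up 89, 85, 59, 63 and 74 loci on chromosomes 1 to 5, of 12224 protein-coding loci measured in all. The remaining 11854 served for comparison. The annotation leaves 8730 of the 22746 tested probe sets without a gene, and loci read only by those are not counted as measured. QQS, which lies in the chromosome 3 window, was left out by the rule. The rule itself goes by position and biotype, and of the measured values it uses only the mean over all 9 arrays, which picked the probe set of the 4 loci with more than 1.

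The arrays compared 3 groups of 3: a null mutant of HDA6, an HDA6 amino acid substitution mutant, and a double transformant of the Columbia background. All were whole plants of strain Col-0, grown on Murashige and Skoog plates in constant light at 21 °C and taken at 35 days. The labels give an EMS-induced mutation in HDA6 for both mutant groups and name rts1-1 as the source of both, so only the sample titles separate the null mutant from the substitution. The labels of the double transformant name no HDA6 mutation, and neither its transgenes nor their presence in the mutant lines is given in the sources used here. A night humidity of 35% is recorded for double transformant 1, and of 53% for all the others. The titles of null mutant 1, amino acid substitution 3 and double transformant 1 end in rpt, a mark that the labels do not explain.

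Plant centromeres are flanked by heterochromatin, chromatin that is rich in transposable elements and their remnants and is kept largely silent by DNA methylation and by histone marks. Some ordinary genes lie within this silent surrounding and are transcribed there. HDA6 is a histone deacetylase, which removes acetyl groups from histones, and it is known for keeping transposons, repeats and some transgenes silent. The comparison addresses whether the protein-coding genes of these regions differ when HDA6 is mutated.

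By annotation order in RefSeq TAIR10.1, the 5 stretches hold 3751 genes, of which 2427 are pseudogenes (64.7%), a class that also takes in transposable element genes, and 976 are protein-coding. Elsewhere in the genome 7.08% of annotated genes are pseudogenes. The share of pseudogenes was highest on chromosome 3 (76.4%) and lowest on chromosome 2 (55.3%). Of the protein-coding genes, 37.9% had a single-gene probe set by the annotation used in these stretches, against 44.8% elsewhere. Genes read only by probe sets that the annotation leaves unnamed are missing from both shares. Among the 10 nearest annotated genes, 5 on each side, a member had a median of 4 pseudogenes, and another protein-coding locus had a median of 0. Only 34 of the 370 have a gene symbol in the annotation, and the other 336 are known by their locus number alone. No function is given for those here.

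The values are MAS5 signals on a linear scale, and differences were computed as log2(signal + 4.03), where 4.03 is the 20th percentile of all values in the table. Differences of probe sets near or below this offset are understated. Median signals of the 9 arrays ran from 31.8 to 36.8, and arrays of a group correlated at 0.945 to 0.977 in log2 signal. A locus was called where limma, fitted to all 22746 probe sets over all 9 arrays, gave a Benjamini-Hochberg adjusted p under 0.05. Nothing in the labels says that replicate arrays stand for separate cultures, and p-values therefore cover only array-to-array spread, possibly technical. Of 38 organ marker loci, 10 were measured and 0 were called by limma in any of the 3 comparisons. An unadjusted p under 0.05 was reached by 3 of the 10 for the null mutant and 4 for the substitution. Of all probe sets 11.1% and 11.8% reached it, so the markers do not show equal organ content. The seed marker PAP85 differed by 1.98 ± 0.55 and 2.37 ± 0.55 (SE, limma adjusted p = 0.168 and 0.0901). The anther marker SHT differed by -1.22 ± 0.53 and -1.49 ± 0.53 (limma adjusted p = 0.414 and 0.278). The other anther and pollen markers did not all go the same way. ANX2 differed by -1.01 and -0.87, ANX1 by -0.11 and -0.08, AT1G66210 by -0.43 and 0.12, and AMS by 0.45 and 0.20. Mean signals of these markers ran from 0.85 (ANX1) to 6.59 (SHT), near or below the offset. RCA, a leaf marker for Rubisco activase, had signals of 4120 to 7420 in the null mutant, 4590 to 6310 in the substitution group and 4840 to 8540 in the double transformant. The summed signal of 5 anther and pollen markers was 3.04 to 14.4, 6.23 to 12.9 and 11.9 to 39.4 in the null mutant, the substitution group and the double transformant, and that of the seed marker PAP85 was 31.5 to 146, 71.4 to 122 and 4.65 to 34.7. The summed signal of 3 root markers was 1610 to 2930 in the null mutant, 1290 to 2060 in the substitution group and 2050 to 3740 in the double transformant, most of it from AT5G44020, which differed by -0.46 ± 0.27 and -0.86 ± 0.27 (limma adjusted p = 0.587 and 0.22). In whole plants, fewer cells of a type and less RNA per cell cannot be told apart.

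Many of the 370 loci gave little signal in any group. The median of their mean signals was 6.93, against 31.9 for the other protein-coding loci. Mean signals of 115 members (31.1%) lay under the offset, against 16.2% of the other loci, and 113 more lay between 4.03 and 16.1. At the bright end, 87 members (23.5%) were above 64.5, against 35.2% of the other loci. These are distributions over probe sets, which differ in how well they bind, and they do not rank single genes. The shortfall was present on every array. The median member signal was 9.25, 7.07 and 13.4 on the null mutant arrays, 9.18, 7.6 and 7.34 on the substitution arrays, and 7.51, 5.98 and 10.5 on the double transformant arrays, while the median of the other loci lay between 29.4 and 34.9. The highest of these medians belonged to null mutant 3 and double transformant 3, and the groups overlapped. The share of members above 64.5 ran only from 22.4% to 24.1% over the 9 arrays. The members also spread more between arrays of a group, with a median SD of 0.399 on the log2 scale, against 0.32 for the other loci. Over the dim, low, middle and bright members in turn this SD was 0.433, 0.654, 0.29 and 0.193. Over the other loci of the same signal ranges it was 0.463, 0.608, 0.305 and 0.194. At like signal the spread was therefore similar, and more of the members were dim. Not every member could be read singly: 22 probe sets carried the suffix s_at and 6 the suffix x_at, which mark probes shared between related sequences, and 19 of the 22 were on chromosome 2.

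In the null mutant 2 of the 370 loci rose and 0 fell. This is 0.541% of the members, against 0.761% of all 22746 probe sets called in either direction, 0.659% called higher and 0.101% called lower. Among the other protein-coding loci 0.531% were called higher. In the substitution group the same pair of loci rose and 0 fell, again 0.541%, against 0.747% of all probe sets called in either direction, 0.62% called higher and 0.127% called lower. These shares of members were near the background, and a count of 2 gives them little precision. Both comparisons use the same double transformant arrays, so they do not provide separate evidence for the pair. With only the 6 arrays of each comparison fitted, 0 members were called in null mutant plants and 1 in substitution plants, AT1G36240 of the pair. With the 3 rpt arrays left out the counts were also 0 and 1, but neither of the pair was called. The 1 call in substitution plants was then AT1G35350, which was lower, at -2.12.

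AT1G36240 had signals of 71.5, 34.9 and 55.2 on the null mutant arrays, 59.4, 51.8 and 50.5 on the substitution arrays, and 8.41, 11.2 and 18.4 on the double transformant arrays. All 6 mutant arrays lay above all 3 double transformant arrays, and null mutant 2 was the lowest of the 6. The means were 53.9 ± 18.4 in the null mutant, 53.9 ± 4.82 in the substitution group and 12.7 ± 5.15 in the double transformant (SD, n = 3 each). The log2 difference was 1.79 ± 0.30 in the null mutant (SE, limma adjusted p = 0.0189) and 1.84 ± 0.30 in the substitution group (limma adjusted p = 0.0221). Both mutant groups were at nearly the same level, with a difference of -0.05 ± 0.30 between the null mutant and the substitution. The rise did not pass in every fit that left out 1 array. For the null mutant the limma adjusted p became 0.0942 or 0.0753 when its array 1 or 3 was omitted, and 0.0553 or 0.0716 when double transformant 1 or 2 was. For the substitution it became 0.122, 0.115 and 0.0649 when its array 1, 2 or 3 was omitted, and 0.0903 when double transformant 2 was. Over these 9 fits the log2 difference stayed between 1.57 and 2.05 for null mutant plants and between 1.65 and 2.07 for substitution plants. Of 11 fits with other settings, the null mutant difference passed in 8 and the substitution difference in 10. Without the 3 rpt arrays neither passed. The null mutant difference was then 1.38 (limma adjusted p = 0.307), and the substitution difference 1.69 (limma adjusted p = 0.0655). With only the 6 arrays compared, the null mutant difference did not pass (limma adjusted p = 0.129), whereas the substitution difference did (limma adjusted p = 0.0273).

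AT5G33390 had signals of 32.5, 20.5 and 38.2 on the null mutant arrays, 40.8, 19.8 and 23.3 on the substitution arrays, and 5.26, 4.74 and 4.48 on the double transformant arrays. The double transformant arrays lay close together just above the offset, and every mutant array was well clear of them. The means were 30.4 ± 9.04 in the null mutant, 28 ± 11.2 in the substitution group and 4.82 ± 0.397 in the double transformant (SD, n = 3 each). The log2 difference was 1.92 ± 0.34 in the null mutant (SE, limma adjusted p = 0.0254) and 1.80 ± 0.34 in the substitution group (limma adjusted p = 0.0395), with 0.12 ± 0.34 between the null mutant and the substitution. This call was the more fragile one. For the null mutant the limma adjusted p became 0.11 or 0.0948 when its array 1 or 3 was omitted, 0.0543 when substitution array 3 was, and 0.0606, 0.085 and 0.0907 when double transformant 1, 2 or 3 was. For the substitution it became 0.209, 0.116 and 0.0867 when its array 1, 2 or 3 was omitted, 0.052 when null mutant 1 was, and 0.0645, 0.132 and 0.126 when double transformant 1, 2 or 3 was. In fits without 1 array the log2 difference stayed between 1.76 and 2.15 for null mutant plants and between 1.53 and 1.98 for substitution plants. Of 11 fits with other settings, the null mutant difference passed in 8 and the substitution difference in 5. Without the 3 rpt arrays neither passed. The null mutant difference was then 1.90 (limma adjusted p = 0.307), and the substitution difference 1.92 (limma adjusted p = 0.135). With only the 6 arrays compared, neither passed (limma adjusted p = 0.102 for null mutant plants, 0.0522 for substitution plants).

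**Figure D1:**
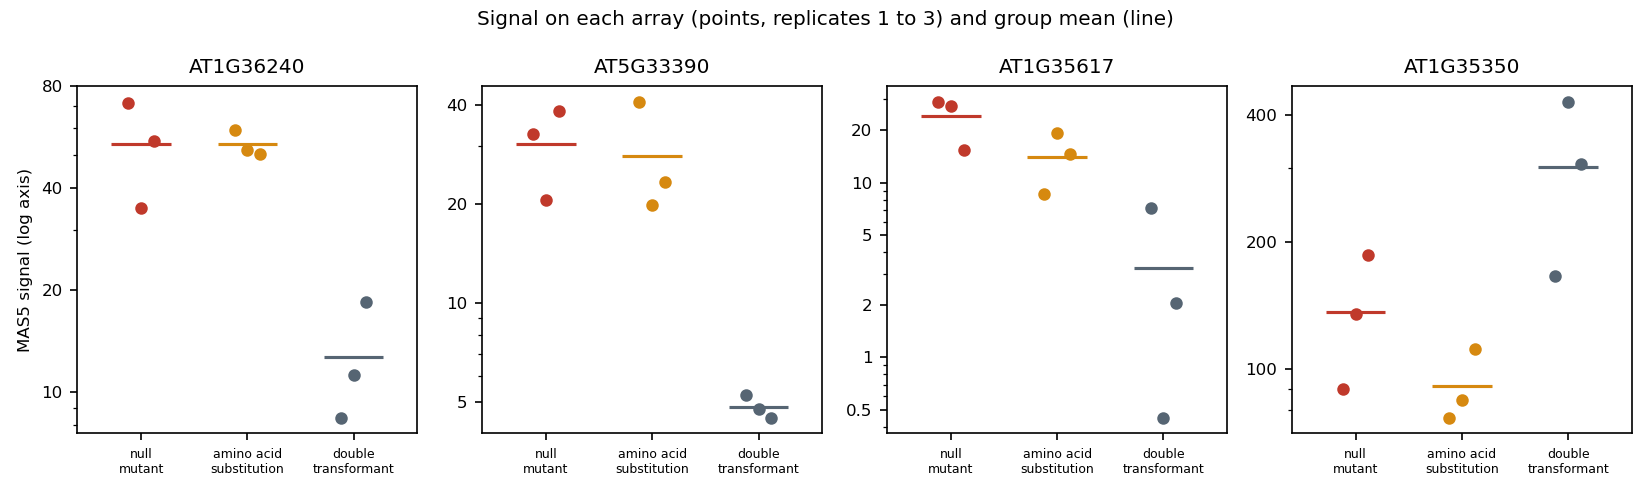
MAS5 signal (log axis) of 4 loci around the centromeres on each of the 9 arrays, by group, with points for replicates 1 to 3 and a line for the group mean. For AT1G36240 and AT5G33390 all mutant arrays lie above the double transformant arrays, AT1G35617 shows the same order with a wide spread in the double transformant (7.2, 0.453 and 2.06), and AT1G35350 is lower in the substitution group (76.9 to 112) than in the double transformant (166 to 430).

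Both raised loci are read by plain probe sets, and both have many pseudogenes near them, 7 of the 10 nearest annotated genes for AT1G36240 and 8 of 10 for AT5G33390. Of the members, 93 (25.1%) had 7 or more such neighbours, and those 93 held both calls. Of the members with 3 to 6 such neighbours 0 of 174 were called higher, and of those with 0 to 2, 0 of 103. Of the other protein-coding loci, 1 of the 33 with 7 or more such neighbours was called higher in each mutant group. Of the 491 with 3 to 6, 9 were called higher in null mutant plants and 7 in substitution plants, and of the 11330 with 0 to 2, 53 and 62. Over all probe sets 0.659% and 0.62% were called higher. These counts are a description, and no link between calls and neighbours was tested. The 3 nearest measured loci on each side of both loci were not called in either mutant group. Beside AT1G36240, the adjoining coding locus AT1G36230 differed by 0.41 in null mutant plants and -0.80 in the substitution group, and AT1G36310 on the other side by -0.16 and -0.01. The next 2 on either side ran from -0.22 to 0.09 and from -0.76 to -0.13. Beside AT5G33390, the pseudogene AT5G33380 differed by 0.36 and 0.93, and the pseudogene AT5G34450, with 41 annotated genes between them, by 0.30 and -0.18. Beyond AT5G33380, the coding locus AT5G33370 differed by 0.38 and 0.15 and the transcribed pseudogene AT5G33350 by 1.26 and 0.11, so that the 3 measured loci on that side were all positive in both groups, with limma adjusted p between 0.306 and 0.963. AT5G33390 is the last measured member before the end of the chromosome 5 window.

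Among loci that missed the threshold, 3 were chosen for description after their values were seen. AT1G35617 had signals of 29.1, 27.4 and 15.4 on the null mutant arrays, 8.67, 19.2 and 14.6 on the substitution arrays, and 7.2, 0.453 and 2.06 on the double transformant arrays. Its mutant arrays also lay above all double transformant arrays, and its difference of 2.01 ± 0.42 in the null mutant was the largest of any member (SE, limma adjusted p = 0.0592), with 1.39 ± 0.42 in the substitution group (limma adjusted p = 0.202). Without double transformant 1 it was 2.38 in the null mutant and passed (limma adjusted p = 0.0423), and in the other fits without 1 array the adjusted p was 0.0753 to 0.226. AT5G28810 had signals of 10.4, 6.1 and 18.3 on the null mutant arrays, 3.16, 0.0335 and 5.36 on the substitution arrays, and 0.389, 0.176 and 0.605 on the double transformant arrays. The null mutant arrays were the 3 highest, while substitution array 2 was the lowest of all 9. The log2 difference was 1.75 ± 0.39 in the null mutant (limma adjusted p = 0.0773) and 0.56 ± 0.39 in the substitution group (limma adjusted p = 0.641). Without null mutant 2 the null mutant difference was 2.03 and passed (limma adjusted p = 0.041), and in the other fits without 1 array the adjusted p was 0.0792 to 0.219.

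AT1G35350 was the member with the largest negative difference in the chromosome 1 window. Its signals were 89.9, 135 and 187 on the null mutant arrays, 76.9, 84.4 and 112 on the substitution arrays, and 166, 430 and 307 on the double transformant arrays. The substitution arrays all lay below the double transformant arrays, whereas null mutant 3 lay above double transformant 1. The log2 difference was -1.07 ± 0.32 in the null mutant (SE, limma adjusted p = 0.209) and -1.59 ± 0.32 in the substitution group (limma adjusted p = 0.0507). The substitution difference passed without double transformant 1, at -1.96 (limma adjusted p = 0.0104), without null mutant 1, at -1.59 (limma adjusted p = 0.0356), and without null mutant 3, at -1.59 (limma adjusted p = 0.0453). It did not pass without substitution array 1, 2 or 3 (limma adjusted p = 0.227, 0.216 and 0.0761), without double transformant 2, at -1.29, or 3 (0.185 and 0.203), or without null mutant 2 (0.07). Without double transformant 1 the null mutant difference of -1.44 passed as well (limma adjusted p = 0.0496). Double transformant 1 is both the array with the lower night humidity and one of the rpt arrays. With a term for the rpt titles the substitution difference was -1.59 (limma adjusted p = 0.0444) and that of the null mutant -1.07 (0.182), and without the 3 rpt arrays they were -2.12 (0.00123) and -1.17 (0.0829).

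The distribution of differences over the 370 loci was close to that of all probe sets. The median log2 difference was 0.03 in null mutant plants and -0.04 in the substitution group, against 0.02 and -0.00 over all probe sets. The null mutant median changed sign with the scaling, to -0.06 with arrays centred on their medians and -0.04 after quantile normalization. Over all alternatives it lay between -0.059 and 0.088, and that of the substitution between -0.095 and 0.014, the highest without double transformant 3. Members ranged from -1.36 to 2.01 in null mutant plants and -1.59 to 1.84 in the substitution group, while all probe sets, a far larger set, reached 6.89 and 7.52. Differences beyond 1 in either direction were seen for 16 members in the null mutant (4.32%, against 4.33% of all probe sets) and for 9 in the substitution group (2.43%, against 3.89%). An unadjusted p under 0.05 was reached by 34 members in the null mutant (9.19%, against 11.1% of all probe sets) and by 28 in the substitution group (7.57%, against 11.8%).

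**Figure D2:**
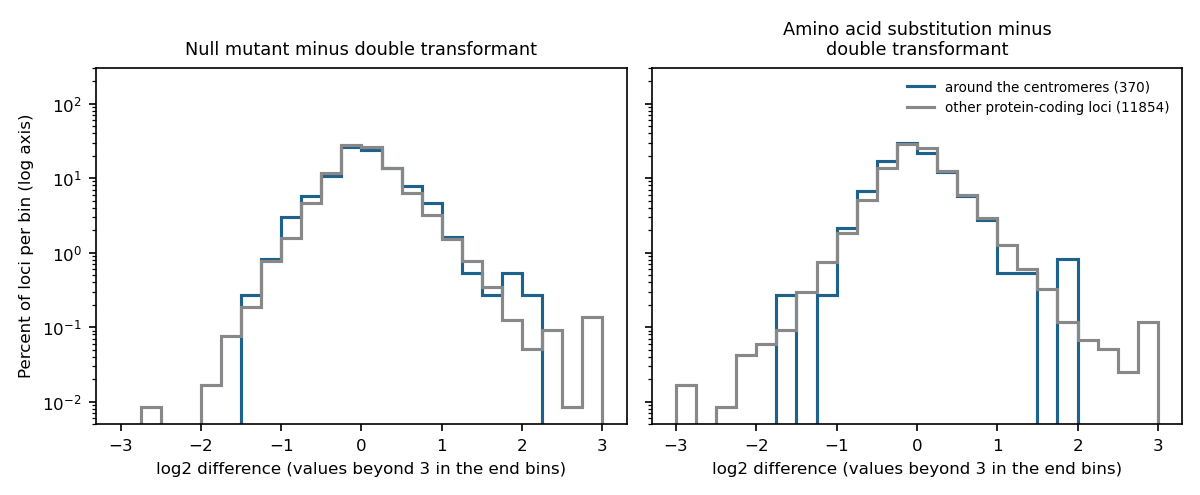
Percent of loci per bin of 0.25 in log2 difference (log axis), for the null mutant and for the amino acid substitution, each minus the double transformant, with the 370 loci around the centromeres in blue and the 11854 other protein-coding loci in grey. The 2 outlines follow each other closely, and the members end at 2.01 and 1.84. Differences beyond the limit named on the axis are gathered in the end bins, where the other loci include values up to 6.12 and 7.52. The other loci are a far larger set, in which extremes are more likely to be met.

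Counts of loci whose 3 mutant arrays all lay beyond the 3 double transformant arrays gave the same picture. In the null mutant 31 members were higher in this sense (8.38%, against 8.19% of all probe sets) and 19 lower (5.14%, against 5.49%). In the substitution group 32 were higher (8.65%, against 10.6%) and 27 lower (7.3%, against 8.6%). Both mutant groups lay above the double transformant for 13 members (3.51%, against 4.13% of all probe sets) and below it for 4 (1.08%, against 2.46%). The 4 lower loci were all bright, with small differences. AT5G27560 differed by -0.40 in null mutant plants and -0.46 in the substitution group, AT5G28750 by -0.38 and -0.33, AT4G05160 by -0.24 and -0.34, and AT1G42960 by -0.17 and -0.18, with limma adjusted p between 0.109 and 0.619. Of the 13 higher loci, AT1G36240 and AT5G33390 were the called ones. AT3G32940 had signals of 74.9, 59.3 and 60.1 on the null mutant arrays, 81.1, 58.2 and 47.6 on the substitution arrays, and 45.7, 36.1 and 36.9 on the double transformant arrays. Its differences of 0.66 ± 0.22 and 0.58 ± 0.22 did not pass (limma adjusted p = 0.258 and 0.304).

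The bright members varied least. For the 87 with a mean signal above 64.5, differences ran from -1.07 to 0.43 in null mutant plants and -1.59 to 0.50 in the substitution group. From the 5th to the 95th percentile they lay between -0.35 and 0.33 for the null mutant and between -0.36 and 0.34 for the substitution. AT1G35350 was the only one beyond 1 in either group. Of the other protein-coding loci of that brightness, 90 (2.16%) differed by more than 1 in null mutant plants and 118 (2.83%) in the substitution group. The 113 members between 4.03 and 16.1 held most of the large differences, 11 beyond 1 in null mutant plants and 5 in the substitution group. These were 9.73% and 4.42%, against 9.79% and 7.68% of all probe sets in that range. Of the 113, 0 were called, against 0.47% and 0.409% of all probe sets in that range. For the 115 under the offset, differences ran from -1.01 to 1.00 in null mutant plants and -0.96 to 0.85 in the substitution group, a range in which log2 differences have little meaning. The called pair belonged to the 55 members between 16.1 and 64.5. This was 3.64% of them in each group, against 0.793% and 0.775% of all probe sets in that range. A count of 2 gives this share little precision, and the difference in share was not tested.

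The 5 windows did not stand apart from each other in their medians. For chromosomes 1 to 5 in turn the median log2 difference was 0.03, -0.03, 0.11, 0.03 and 0.10 in null mutant plants and -0.08, -0.03, -0.03, -0.06 and -0.02 in the substitution group. Each window was described by the member with the largest positive and the largest negative mean of its differences in both mutant groups. On chromosome 1 these were AT1G36240 and AT1G35350, and on chromosome 5 the positive one was AT5G33390.

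On chromosome 2 the largest positive differences were those of AT2G07140, read by an x_at probe set, at 27.2, 24.7 and 27.5 on the null mutant arrays, 25.7, 26.2 and 46.8 on the substitution arrays, and 16, 2.46 and 15.5 on the double transformant arrays. The groups did not overlap, but double transformant 2 was far below the other arrays, and the differences of 1.16 ± 0.43 and 1.39 ± 0.43 did not pass (limma adjusted p = 0.33 and 0.206). AT2G07719, read by an s_at probe set, differed by -0.90 in null mutant plants and -0.53 in the substitution group (limma adjusted p = 0.49 and 0.72). On chromosome 3, AT3G30820 had signals of 13.5, 16.1 and 2.24 on the null mutant arrays, 18.6, 12.1 and 17.5 on the substitution arrays, and 4.18, 1.21 and 0.702 on the double transformant arrays. Null mutant 3 overlapped the double transformant, and the substitution arrays did not. The differences were 1.15 ± 0.46 in the null mutant (limma adjusted p = 0.373) and 1.76 ± 0.46 in the substitution group (limma adjusted p = 0.126). AT3G30730 differed by -0.58 and -1.08 (limma adjusted p = 0.676 and 0.338). On chromosome 4, AT4G07740 differed by 0.74 in null mutant plants and 0.95 in the substitution group, and AT4G05080 by -0.81 and -0.51, all close to the offset in level and with limma adjusted p between 0.386 and 0.629.

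**Figure D3:**
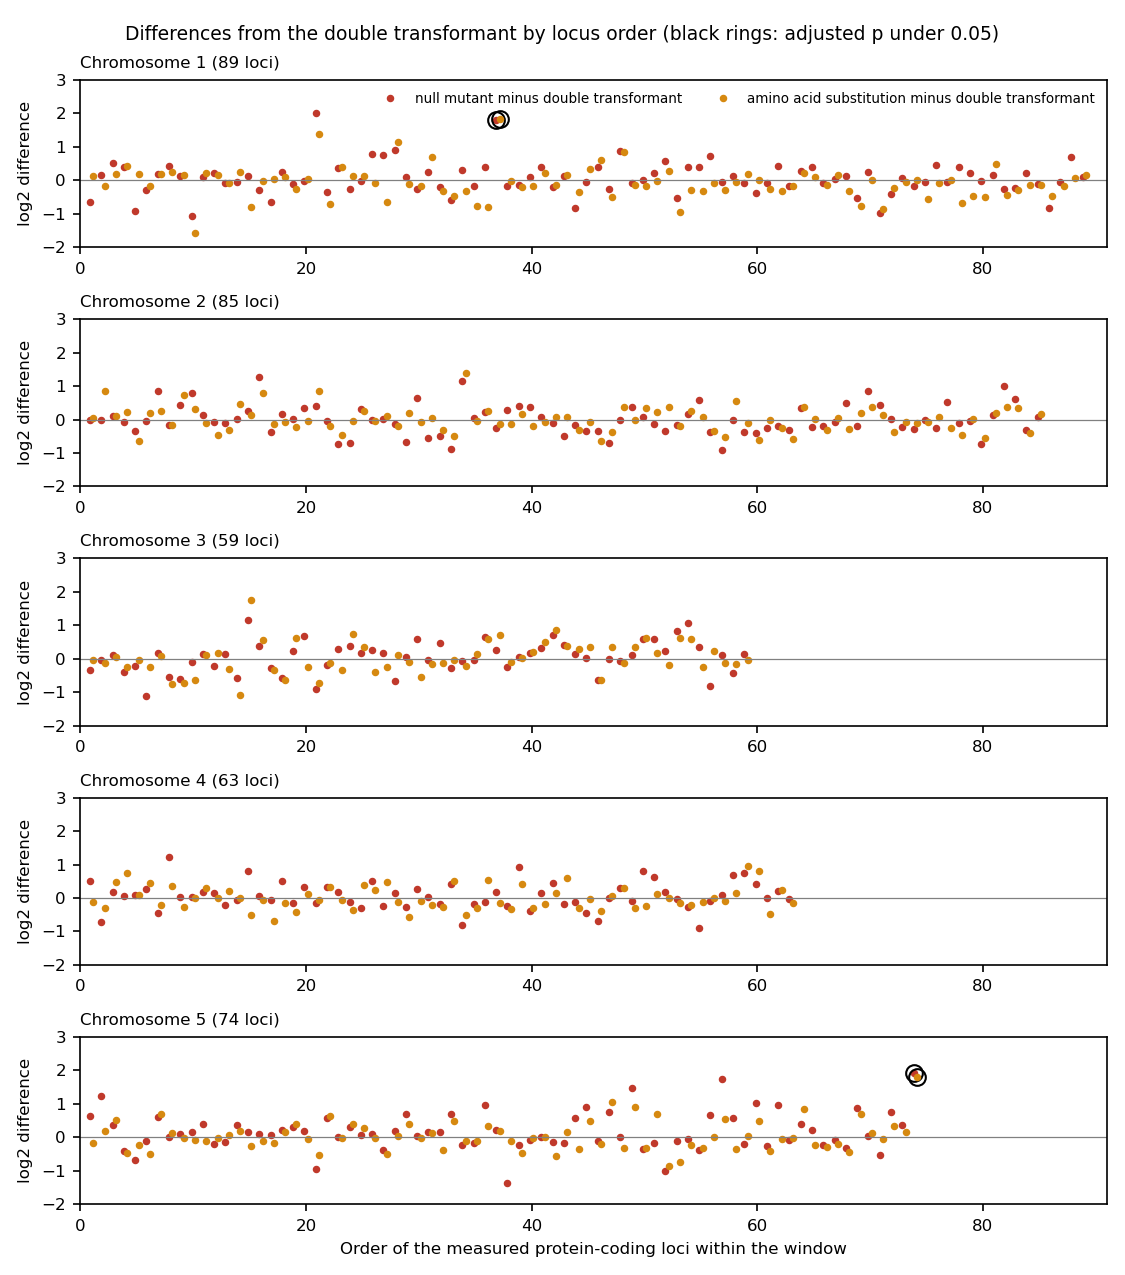
Log2 difference from the double transformant of each of the 370 loci in the order of the loci within each window, for the null mutant in red and the amino acid substitution in orange, with black rings at an adjusted p under 0.05. The rings mark AT1G36240 in the chromosome 1 window and AT5G33390 at the end of the chromosome 5 window, and the other points scatter around 0 in all 5 windows.

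The loci at the 10 window ends were examined once as values. The last measured members inside the ends differed by -0.66 to 1.92 in the null mutant and by -0.16 to 1.80 in the substitution group, the highest being AT5G33390, and the first measured coding loci outside by -0.30 to 0.72 and -0.61 to 0.93. In a flank of 20 protein-coding loci beyond each end, 200 in all, 1 was called higher in null mutant plants and 0 in the substitution group, where the background was 0.659% and 0.62%. That locus was AT3G43670, with signals of 81.5, 78.1 and 82.3 on the null mutant arrays, 58.5, 59.4 and 61.6 on the substitution arrays, and 40.1, 48.1 and 44 on the double transformant arrays, a difference of 0.82 ± 0.15 in the null mutant (limma adjusted p = 0.0325).

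The chromosome 2 window contains a long copy of mitochondrial DNA beside the centromere. From AT2G07660 to AT2G07790, the locus numbers taken for it here, 27 members were measured, 18 of them by s_at probe sets, so that transcripts of the mitochondrion itself may be read with them. Their mean signals ran from 1.19 to 90.1, with a median of 8.87. Differences ran from -0.90 to 0.84 in null mutant plants and -0.64 to 0.55 in the substitution group, with medians of -0.19 and 0.00, and 0 were called by limma. At an unadjusted p under 0.05 the counts were 1 in null mutant plants and 0 in the substitution group, against 11.1% and 11.8% of all probe sets. Over all probe sets 0.761% and 0.747% were called in these groups, so 0 calls among 27 loci say little. The other 58 members of that window ran from -0.88 to 1.28 and from -0.63 to 1.39.

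Of the 34 members with a gene symbol, 0 were called by limma in any of the 3 comparisons. Over all probe sets 0.761% were called in the null mutant, 0.747% in the substitution group and 0.0396% between them, so 0 of 34 says little. An unadjusted p under 0.05 was reached by 2 of the 34 in each mutant group, against 11.1% and 11.8% of all probe sets. The differences of the 34 ran from -1.01 to 0.59 in null mutant plants and -0.87 to 0.70 in the substitution group. They were grouped by the role that each is known for.

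The 7 regulators of transcription differed by -0.67 to 0.39 in the null mutant and by -0.31 to 0.28 in the substitution group. SEU (SEUSS), a co-repressor of floral patterning, had signals of 132, 119 and 120 on the null mutant arrays, 110, 123 and 122 on the substitution arrays, and 123, 137 and 187 on the double transformant arrays. The groups overlapped, and the differences were -0.24 ± 0.15 and -0.30 ± 0.15 (limma adjusted p = 0.619 and 0.476). BZIP60, a transcription factor of the unfolded protein response, differed by 0.39 ± 0.21 in null mutant plants and 0.10 ± 0.21 in the substitution group. Its signals were 357, 184 and 231 on the null mutant arrays, 248, 198 and 169 on the substitution arrays, and 186, 193 and 185 on the double transformant arrays, so that null mutant 1 alone was far above the rest. DAYSLEEPER, a protein derived from a transposase and needed for plant growth, differed by 0.14 ± 0.17 and 0.28 ± 0.17. The MADS-box genes AGL79 and AGL89, bZIP42 and WRKY42 had mean signals of 1.45 to 5.56, near or below the offset.

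Among 4 loci for DNA repair and ribosome biogenesis, FANCM, a helicase that limits meiotic crossovers, differed by -0.64 ± 0.38 in null mutant plants and 0.03 ± 0.38 in the substitution group. RECQSIM, a RecQ-like helicase, differed by 0.59 ± 0.44 and 0.70 ± 0.44. Both were near the offset in level. YAO and PCN, both WD-repeat proteins, differed by 0.31 ± 0.22 and 0.09 ± 0.15 in the null mutant and by 0.31 ± 0.22 and -0.10 ± 0.15 in the substitution group. None of the 4 passed.

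A run of methionine sulfoxide reductase genes on chromosome 4, whose enzymes repair oxidised methionine, was read by a probe set for each of 3 copies. MSRB3 differed by 0.33 ± 0.22 in null mutant plants and 0.12 ± 0.22 in the substitution group. MSRB5 differed by -0.16 ± 0.20 and -0.06 ± 0.20, and MSRB6 by 0.33 ± 0.23 and 0.34 ± 0.23. The other redox genes reached an unadjusted p under 0.05 in 1 group each. The chloroplast thioredoxin gene ty2 had signals of 589, 750 and 538 on the null mutant arrays, 759, 591 and 770 on the substitution arrays, and 898, 735 and 833 on the double transformant arrays. Null mutant 2 overlapped the double transformant, and the difference of -0.40 ± 0.15 in the null mutant did not pass (limma adjusted p = 0.35). NDB2, a mitochondrial NAD(P)H dehydrogenase of the alternative respiratory pathway, differed by -0.57 ± 0.26 in the substitution group (limma adjusted p = 0.414) and by -0.27 ± 0.26 in the null mutant.

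The 8 loci for autophagy, protein sorting and turnover differed by -0.13 to 0.34 in null mutant plants and by -0.18 to 0.48 in the substitution group. ATG8D and ATG8B, ubiquitin-like proteins of the autophagosome, differed by 0.26 ± 0.14 and 0.02 ± 0.14 in the null mutant and by 0.13 ± 0.14 and -0.00 ± 0.14 in the substitution group. VPS2.1, a subunit of the ESCRT-III complex that sorts membrane proteins, differed by -0.13 ± 0.12 and -0.18 ± 0.12. DER2.2, a Derlin of the degradation pathway of the endoplasmic reticulum, differed by 0.19 ± 0.15 and -0.05 ± 0.15.

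Of 6 metabolic and cell wall genes, ATPC1, the gamma subunit of the chloroplast ATP synthase, had a mean signal of 4444 and differed by 0.14 ± 0.20 in null mutant plants and -0.01 ± 0.20 in the substitution group. GME, GDP-mannose epimerase of ascorbate and cell wall synthesis, had signals of 1106, 1671 and 960 on the null mutant arrays, 1344, 1419 and 1475 on the substitution arrays, and 1839, 1281 and 1128 on the double transformant arrays. The groups overlapped fully, with differences of -0.19 ± 0.22 and 0.03 ± 0.22. ALN, allantoinase of purine breakdown, differed by 0.51 ± 0.37 and 0.25 ± 0.37, and UGT80B1, a sterol glucosyltransferase, by -0.18 ± 0.18 and 0.01 ± 0.18.

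Among 4 receptor and signalling genes, ANX2, a receptor kinase of the pollen tube, was the member with the largest negative mean difference on chromosome 5. Its signals were 0.209, 0.679 and 0.929 on the null mutant arrays, 0.816, 1.13 and 1.26 on the substitution arrays, and 7.13, 0.636 and 11.6 on the double transformant arrays. Only double transformant 1 and 3 exceeded the offset, and double transformant 2 lay within the range of the mutant arrays. The differences of -1.01 ± 0.39 and -0.87 ± 0.39 did not pass (limma adjusted p = 0.353 and 0.414). The summed anther and pollen marker signal given above reached its highest values in the double transformant, but the groups overlapped. It ran from 11.9 to 39.4 there, 3.04 to 14.4 in the null mutant and 6.23 to 12.9 in the substitution group. ANX2 is itself a part of this sum, and whether organ content has a part in the ANX2 values was not tested. GLR3.3, a glutamate receptor-like channel of wound signalling, differed by -0.37 ± 0.19 in null mutant plants and 0.00 ± 0.19 in the substitution group.

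**Figure D4:**
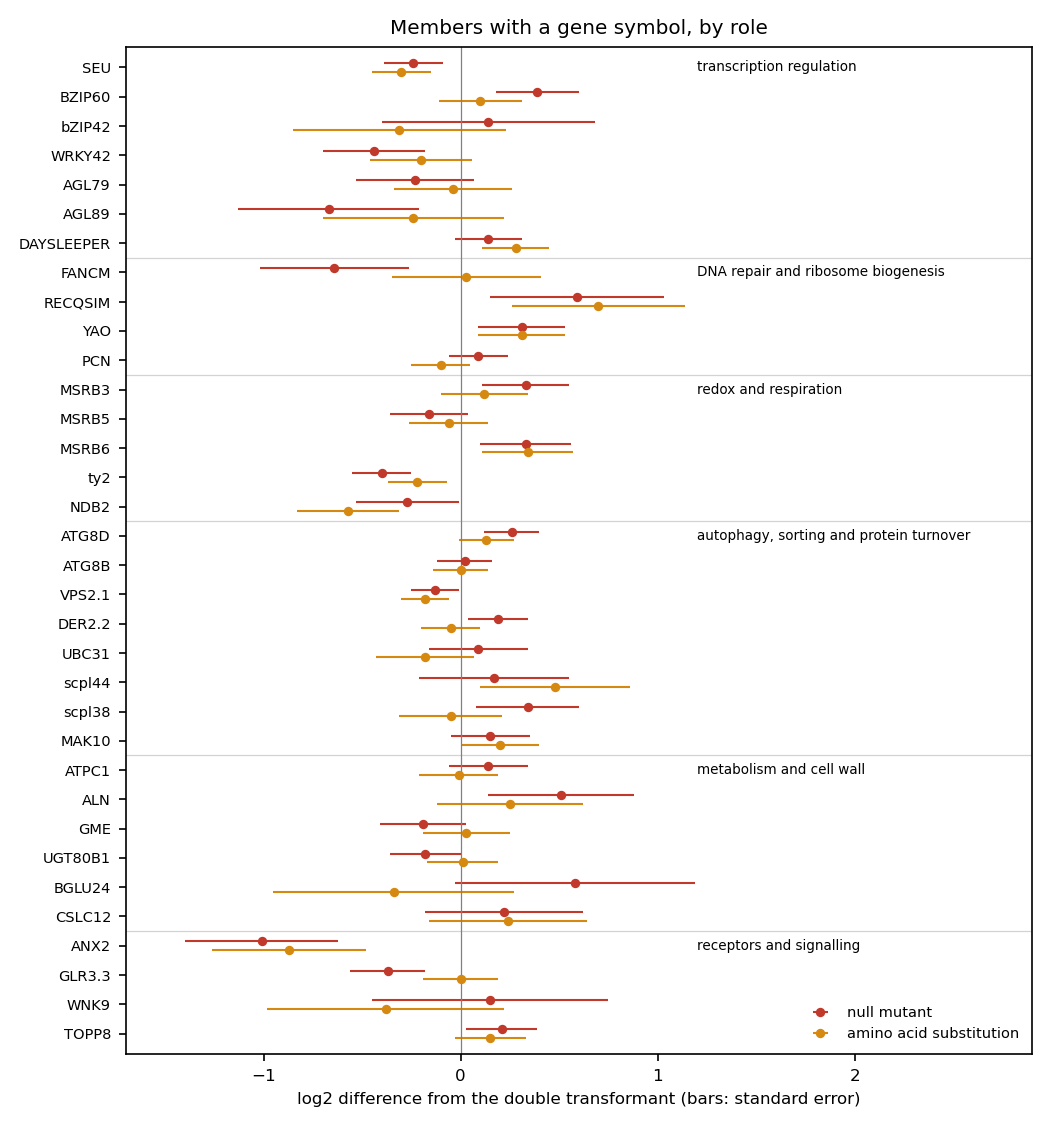
Log2 difference from the double transformant, with its standard error as a bar, of the 34 loci that have a gene symbol, grouped by role, for the null mutant in red and the amino acid substitution in orange. The points run from -1.01 (ANX2) to 0.70 (RECQSIM), and none passed an adjusted p of 0.05.

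There were 5 lists of genes by role, for chloroplast and photosynthesis, primary metabolism, translation and protein turnover, transcription and chromatin, and pollen. Of their 60 loci 17 were measured members, and 0 of the 17 were called by limma in any comparison. Over all probe sets 0.761% were called in the null mutant, 0.747% in the substitution group and 0.0396% between them. At such rates 0 of 17 says little. The same 2 of the 17, AT5G27850 and ANX2, had an unadjusted p under 0.05 in each mutant group. Of all probe sets 11.1% reached it for the null mutant and 11.8% for the substitution. Most of the 17 loci carry no symbol in the annotation and are given by locus. AT5G27850, from the translation list, had signals of 1195, 1155 and 1284 on the null mutant arrays, 1393, 1218 and 1277 on the substitution arrays, and 867, 977 and 1115 on the double transformant arrays. Its mutant arrays were all above its double transformant arrays, but the differences of 0.30 ± 0.13 and 0.40 ± 0.13 did not pass (limma adjusted p = 0.411 and 0.227). AT5G28060, from the same list, differed by 0.16 ± 0.12 and 0.13 ± 0.12, and AT1G36390, from the chloroplast list, by -0.19 ± 0.14 and -0.13 ± 0.14. AT3G42830, from the pollen list, had signals of 15.2, 1.45 and 21.8 on the null mutant arrays, 3.88, 9.27 and 5.94 on the substitution arrays, and 1.52, 0.554 and 7.81 on the double transformant arrays. The groups overlapped, and the differences were 1.06 ± 0.57 and 0.60 ± 0.57 (limma adjusted p = 0.535 and 0.761). The silencing genes CLSY1 and ARP6 were not among the loci measured here.

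Pseudogene loci of the same windows, annotated as pseudogene or transcribed pseudogene, were set beside the protein-coding ones. Of 463 measured, 9 were called higher in null mutant plants (1.94%) and 6 in substitution plants (1.3%), 5 of them in both, while 0 were called lower. For the protein-coding members the share was 0.541% in each group. Outside the windows 18 of 526 pseudogene loci were higher in each group (3.42%), against 0.531% and 0.591% of the other protein-coding loci. Part of the pseudogene calls came from s_at and x_at probe sets, which may read several related copies. In the windows 6 of the 9 and 4 of the 6 calls were on plain probe sets, which read 382 of the 463 loci. Outside them 10 and 7 of the 18 were, with 416 of the 526 loci on plain probe sets. Of the other protein-coding calls, 62 of 63 and 69 of 70 were plain. The pseudogenes of the windows had a median signal of 3 and lay under the offset for 64.8%. Among the raised ones, AT1G43590 had signals of 147, 169 and 175 on the null mutant arrays, 127, 174 and 157 on the substitution arrays, and 33.9, 29.3 and 20.1 on the double transformant arrays, differences of 2.42 ± 0.19 and 2.31 ± 0.19 (limma adjusted p = 6.2e-05 and 8.84e-05). AT5G28230 had 23.4, 33.6 and 13.1 on the null mutant arrays, 32.9, 29.1 and 18.6 on the substitution arrays, and 1.66, 1.28 and 1.45 on the double transformant arrays. The differences in share between the classes were not tested.

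**Figure D5:**
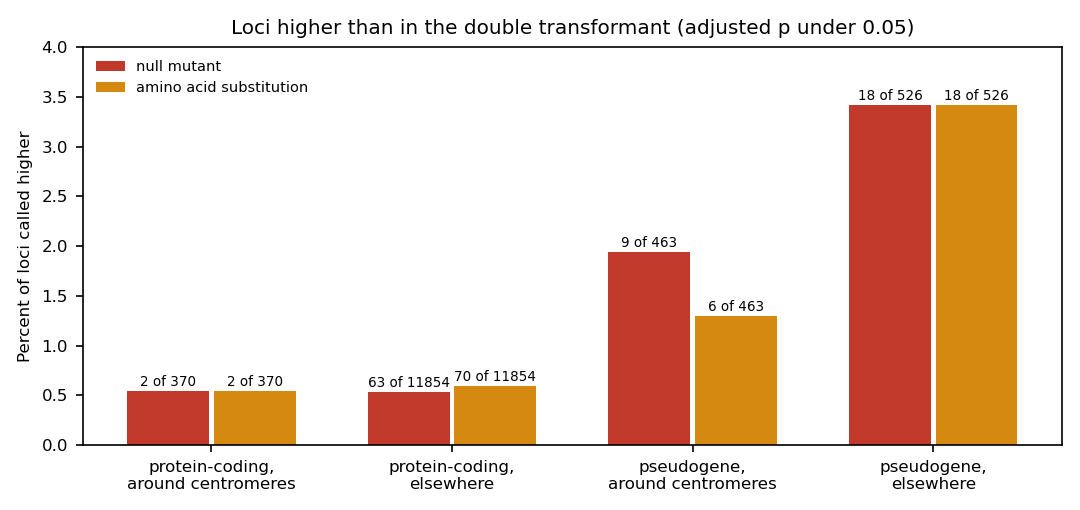
Percent of loci called higher than in the double transformant (adjusted p under 0.05), with bars for the null mutant in red and the amino acid substitution in orange and the count above each bar. Protein-coding loci stand at 0.541% around the centromeres and 0.531% and 0.591% elsewhere, and pseudogene loci at 1.94% and 1.3% around the centromeres and 3.42% elsewhere. The pseudogene bars include calls on s_at and x_at probe sets, which may read several related copies.

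Between the null mutant and the substitution group 0 of the 370 loci were called by limma, against 0.0396% of all probe sets, and 18 reached an unadjusted p under 0.05 (4.86%, against 6.36%). The median difference was 0.06, against 0.03 over all probe sets, and members ranged from -1.25 to 1.42. The null mutant arrays all lay above the substitution arrays for 25 members (6.76%, against 6.06%) and below them for 12 (3.24%, against 5.6%). The smallest p, looked up after the values were seen, was that of AT4G04690, which had signals of 8.09, 7.98 and 17.1 on the null mutant arrays, 2.43, 1.17 and 1.68 on the substitution arrays, and 5.96, 6.94 and 1.12 on the double transformant arrays. The null mutant arrays lay above the others, and the difference of 1.33 ± 0.38 between the mutant groups did not pass (limma adjusted p = 0.597). AT1G35890 differed most in the positive direction, by 1.42 ± 0.48, and AT5G28310 in the negative, by -1.25 ± 0.47, with limma adjusted p of 0.679 and 0.715.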

How the data were processed

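RNA from 9 whole-plant samples was labelled with a 3' IVT Express kit and hybridised to ATH1 arrays, per the labels' protocols. The deposited intensity values are on a linear scale. The submitters' processing notes name MAS5 and GCOS, whose versions are not given in the sources used here. After trimming 2% at each end every array had a mean of 100.01, so the arrays share a common scale. The number of arrays limits the precision.

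Of 22810 probe sets, 64 controls were left out. Gene names came from the platform annotation, updated through RefSeq TAIR10.1, which was used for names, biotypes and gene order; 13513 tested probe sets had 1 gene, 503 several, and 8730 are unnamed here, the mutated gene's among them. Log2(signal + 4.03) values of all 9 arrays entered 1 fit in limma 3.58.1 under R 4.3.3, with an intensity trend and Benjamini-Hochberg adjustment over 22746 probe sets. The fit was tested on simulated data.

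The members and lists were chosen with earlier results of these data known. Named were all called members, the largest positive and negative mean difference per window, up to 4 called or the 2 smallest p per role list, loci at window ends, and CLSY1, ARP6 and ANX2; others are marked as chosen after their values were seen or stand for a described class. Same-numbered arrays' deviations correlated between -0.0409 and 0.154, so little pairing by number was seen. Differently numbered arrays were not compared in this way, and pairing is therefore not excluded. Alternatives tried included different offsets, leaving out dim probe sets, other normalizations, no variance trend, blocks, fewer arrays, plain probe sets only and, added after seeing the data, a threshold of 0.1 and a fit without null mutant 3 and double transformant 3.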

Additional observations from a re-analysis of the deposited data

How the results depend on the processing

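The counts of called members, 2 in the null mutant, 2 in the substitution group and 0 between the mutant groups, were recomputed under 22 alternatives. In the null mutant 0 were called without the 3 rpt arrays, with only the 6 arrays compared, and without null mutant 3 and double transformant 3 together, and 4 were called at an adjusted p under 0.1. In the substitution group 1 was called with an offset of 16.1, after quantile normalization, without the rpt arrays (the lower locus AT1G35350), with only the 6 arrays compared, and without null mutant 3 and double transformant 3 together. Leaving out single arrays gave 0 to 3 calls in the null mutant, the lowest when null mutant 1, null mutant 3 or double transformant 2 was omitted, and 1 when substitution array 3 or double transformant 3 was. It gave 0 to 4 calls in the substitution group, the lowest when substitution array 1, 2 or 3 or double transformant 2 was omitted, 1 when double transformant 3 was and 4 when null mutant 3 was. Between the mutant groups the count was 0 in all 22 alternatives. With the replicate number as a block the counts were 3, 3 and 0, the added calls being AT5G28810 in the null mutant (limma adjusted p = 0.0498) and AT1G35350 in the substitution group (limma adjusted p = 0.00925), although the numbers did not pair the arrays. No called difference changed sign, whereas the median difference over the members, which is near 0, did in both mutant groups: to -0.059 in the null mutant with median centring and to 0.014 in the substitution group without double transformant 3. Over the named genes and their alternatives, 998 values kept direction and side of the threshold, 34 were no longer past it, 10 were newly past it and 17 moved by more than the spread. The cause of these changes was not tested, except that fits with fewer arrays have less information by construction. Mean signals of 115 members lay under the offset, where differences could not be measured.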
